A study of Mus musculus with 3 samples.

Results

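Genes of ion channels and of the sodium pump were compared between nephritic and normal mouse kidney. The set was chosen by a rule on gene symbols, with earlier results of these data known. It took every array feature whose current symbol starts with Kcn, Clcn, Scnn1, Cacn, Atp1a or Atp1b, or with Scn, Trpc, Trpm or Trpv and a digit, plus Fxyd1 to Fxyd5; 1 TRP channel was left to the calcium-handling genes. This gave 215 rows of the array for 123 genes, of 10698 genes named on the table, and 78 of the 123 had a ratio on all arrays and were tested. The rule also took in Kcnmb4os1 and Kcnmb4os2, antisense RNAs of a potassium channel gene, and Trpc4ap, a protein that binds a TRP channel; none of these is a channel subunit.

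The study hybridised total RNA of whole kidney to 3 arrays of 2 colours. Each array carried Cy5-labelled RNA of 1 BALB/c mouse in which nephritis had been started with anti-GBM antibody 11 days earlier; this antibody binds the glomerular basement membrane and causes glomerulonephritis. Every array carried in Cy3 one and the same kidney RNA pool, made from 5 normal BALB/c mice. The labels give a different mouse for each array, so n = 3 counts mice, while the pool is 1 control sample; no age or sex is given for them here. Values are log ratios in the deposited unit, whose base is not stated, with each array's median set to 0; a value above 0 is read as more RNA in nephritis, a direction that rests on the labels' dyes and is likely, not settled. A ratio holds no level, so the tissue could not be checked against the abundance of kidney markers. In whole kidney, fewer cells of a type and less RNA per cell cannot be told apart.

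Ion transport along the nephron is driven by the sodium pump in the basolateral membrane, built from a catalytic alpha and a beta subunit and tuned by small FXYD proteins. Potassium channels recycle potassium and set the membrane voltage, and chloride channels let chloride leave the cell or acidify endosomes. In the collecting duct sodium enters through the epithelial sodium channel, made of alpha, beta and gamma subunits. Voltage-gated sodium and calcium channels are best known from nerve and muscle, and many TRP channels admit calcium.

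Over the 78 tested genes, 11 were higher and 26 were lower at an adjusted p under 0.05 (limma, two-sided, with Benjamini-Hochberg adjustment over all 8449 tested features; each gene's 3 ratios were set against 0), and 41 did not pass. Over all features 43.1% passed, 20.8% higher and 22.3% lower. The channel and pump genes thus had 14.1% higher, below that background, and 33.3% lower, above it. Should the ratios run the other way, these shares turn: 33.3% higher against 22.3%, and 14.1% lower against 20.8%. Their median log ratio was -0.09, beside -0.01 over all features, and it was -0.08, -0.09 and -0.13 in mice 1, 2 and 3. All mice were below 0 for 33 of the 78 genes (42.3%, against 35.4% of all features) and above 0 for 21 (26.9%, against 33.3%). The median SD over mice was 0.132 for these genes and 0.121 for all features. The fit holds no spread among normal mice, and without a dye swap it cannot part dye from disease.

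**Figure D1:**
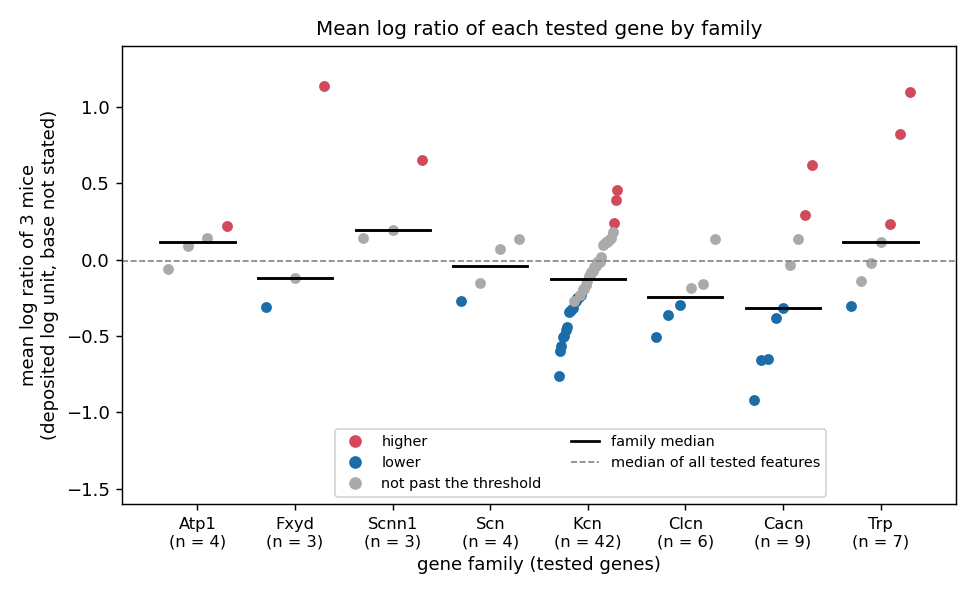
Mean log ratio over 3 mice (y axis, deposited log unit) of each tested gene, by gene family (x axis). Red points are higher and blue points lower at an adjusted p under 0.05, grey points did not pass, black bars are family medians and the dashed line is the median of all tested features. In the Clcn and Cacn families the medians, -0.24 and -0.32, lie below that line, and the highest points belong to the Fxyd and Trp families.

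The highest values came from a pump regulator and from TRP channels. Fxyd5, also called dysadherin, is an FXYD protein that binds the sodium pump and weakens adhesion between epithelial cells. It stood at 1.32, 1.00 and 1.10 in mice 1, 2 and 3 (mean 1.14 ± 0.161, SD, n = 3; limma adjusted p = 0.000127), and 98.3% of all features had a mean at or below it. Trpv2, a calcium-permeable channel found in macrophages among other cells, stood at 1.01, 1.18 and 1.11 (mean 1.10 ± 0.084; limma adjusted p = 8.63e-05). These were the only channel or pump genes with a mean of 1 or more, and the lowest mouse of each was above the highest mouse of every other tested member.

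Trpv6, the calcium entry channel of calcium-absorbing epithelia, followed at 0.72, 0.89 and 0.85 (mean 0.82 ± 0.0882, SD, n = 3; limma adjusted p = 0.000242). Scnn1g, the gamma subunit of the epithelial sodium channel, was at 0.61, 0.48 and 0.86 (mean 0.65 ± 0.192; limma adjusted p = 0.00145). All mice were well above 0 for both genes, with overlapping values. When exact 0 was kept as a ratio, the second row of Fxyd5 and of Scnn1g, at 0 on every array, entered the mean; Fxyd5 then moved to 0.58 and kept its call (adjusted p = 0.0424), and Scnn1g moved to 0.33 and lost it (adjusted p = 0.0834).

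The bases upstream of the outermost annotated start are printed for 4 genes at the top and for 2 at the bottom of the order, Cacna2d2 and Cacna1b, so that the regulatory sequence of genes that rose and fell can be read side by side. They come from RefSeq, mouse build GRCm38.p6, 5′ to 3′ on the gene's strand: Fxyd5 at chr7:31042332-31042581 (minus), Trpv2 at chr11:62574236-62574485 (plus, the first of 3 listed starts), Trpv6 at chr6:41636406-41636655 (minus), Scnn1g at chr7:121734229-121734419 (plus), Cacna2d2 at chr9:107399630-107399732 (plus) and Cacna1b at chr2:24763201-24763402 (minus). Capitals mark a match to a TATA box (TATAAA), an AP-1 motif (TGANTCA), an NF-kB-like string (GGGNNTTCC) or a steroid receptor half-site (AGAACA). Both strands were searched, with overlaps allowed.
Fxyd5: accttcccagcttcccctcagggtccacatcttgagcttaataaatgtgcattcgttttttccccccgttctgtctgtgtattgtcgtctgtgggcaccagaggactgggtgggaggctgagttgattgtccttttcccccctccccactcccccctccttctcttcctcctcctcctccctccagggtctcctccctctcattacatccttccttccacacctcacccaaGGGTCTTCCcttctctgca
Trpv2: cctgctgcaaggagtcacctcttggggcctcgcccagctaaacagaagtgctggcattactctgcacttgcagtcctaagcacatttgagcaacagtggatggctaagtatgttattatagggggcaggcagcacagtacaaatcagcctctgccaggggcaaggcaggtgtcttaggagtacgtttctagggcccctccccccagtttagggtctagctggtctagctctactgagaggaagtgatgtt
Trpv6: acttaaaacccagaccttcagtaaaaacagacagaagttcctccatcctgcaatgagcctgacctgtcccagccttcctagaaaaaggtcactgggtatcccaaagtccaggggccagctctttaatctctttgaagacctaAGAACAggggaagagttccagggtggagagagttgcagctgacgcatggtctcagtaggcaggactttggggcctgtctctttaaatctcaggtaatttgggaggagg
Scnn1g: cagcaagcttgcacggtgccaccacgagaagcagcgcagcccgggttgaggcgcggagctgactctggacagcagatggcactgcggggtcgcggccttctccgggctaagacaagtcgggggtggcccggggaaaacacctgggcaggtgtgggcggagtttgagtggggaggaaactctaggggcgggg
Cacna2d2: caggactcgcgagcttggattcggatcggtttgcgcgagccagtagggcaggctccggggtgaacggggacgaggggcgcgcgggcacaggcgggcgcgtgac
Cacna1b: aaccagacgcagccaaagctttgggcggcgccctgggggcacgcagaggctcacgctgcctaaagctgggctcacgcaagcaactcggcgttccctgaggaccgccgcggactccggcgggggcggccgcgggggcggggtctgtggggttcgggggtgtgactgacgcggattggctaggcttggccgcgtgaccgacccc

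Fxyd5 held 1 match to the NF-kB-like letters, GGGTCTTCC, starting 19 bases before the start. Trpv6 held 1 steroid receptor half-site, starting 108 bases before its start. The NF-kB letters searched here have 1 fixed length, so NF-kB sites of another length were not counted. The printed stretches of Scnn1g, Cacna2d2 and Cacna1b hold 191, 103 and 202 bases, since they end where another annotated transcript starts; the others hold 250, and a shorter stretch has fewer places for a match. Over all 32851 windows of the RefSeq table, each of the 250 bases before a listed start, 5.0% held the NF-kB letters, 16.1% the half-site, 6.7% the AP-1 letters and 12.4% the TATA letters. Counted in the same whole windows, 2 of the 10 higher genes with a window held the NF-kB letters, 1 the half-site and none (0) the AP-1 or TATA letters. Among the 21 lower genes with a window, 1 held the NF-kB letters, 1 the TATA letters and none (0) the AP-1 letters or the half-site. A match is a string of letters and not a shown binding site. The stretches also differ in CG dinucleotides: 1.2, 0.8 and 0.4 for each 100 bases in Fxyd5, Trpv2 and Trpv6, against 7.33 in Scnn1g, 14.56 in Cacna2d2 and 11.39 in Cacna1b, with a median of 2.4 over all windows.

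Among the pump subunits themselves, 1 of 4 tested passed. Atp1b3, a beta subunit, was at 0.14, 0.26 and 0.26 (mean 0.22 ± 0.0702, SD, n = 3; limma adjusted p = 0.0371), a call that fell away without mouse 2 or 3 (adjusted p = 0.156 and 0.247), with exact 0 kept (0.0865 as adjusted p) or without low-SD features (0.0891). Atp1b1, the main beta subunit of kidney tubules, was at -0.24 in mouse 1 but at 0.39 and 0.28 in mice 2 and 3 (mean 0.14 ± 0.336, 95% interval -0.15 to 0.44; adjusted p = 0.386). Its SD was the largest of all tested members, and both of its rows showed the split, with -0.14 and -0.34 in mouse 1 against 0.14 to 0.46 in the others. Without mouse 1 it stood at 0.33 and passed (adjusted p = 0.00663). Atp1b4, a muscle protein of the same family, was at 0.09 ± 0.0721 (limma adjusted p = 0.32), and Atp1a4, the alpha subunit of sperm, at -0.06 ± 0.174 (limma adjusted p = 0.6) was the catalytic subunit tested here. Atp1b2, a beta subunit known from glia, was listed at exact 0 on all arrays.

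The FXYD regulators went separate ways. Beside Fxyd5, which rose, Fxyd4, the FXYD protein of the collecting duct, was at -0.28, -0.35 and -0.29 (mean -0.31 ± 0.0385, SD, n = 3; limma adjusted p = 0.00989). The mice lay close together and all below 0, but the gene missed the threshold without mouse 2 or without mouse 3 (adjusted p = 0.053 and 0.0745). Fxyd1, known from heart and muscle, stood at -0.12 ± 0.204 (limma adjusted p = 0.331) as the average of a row at 0.14 ± 0.192 and a row at -0.38 ± 0.242, so the rows of that gene differed in sign. Fxyd2, the gamma subunit of the pump in kidney tubules, had no row measured on all arrays: 1 row gave 0.06 and 0.11 in mice 1 and 3, and the other -0.06 in mouse 1. Fxyd3 likewise gave 0.11 and 0.19 in mice 1 and 2 from 1 row and -0.26 in mouse 1 from the other.

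Of the 3 subunits of the epithelial sodium channel, the gamma subunit alone passed. Scnn1b, the beta subunit, was at 0.05, 0.28 and 0.26 (mean 0.20 ± 0.123, SD, n = 3, 95% interval 0.02 to 0.38; adjusted p = 0.0743). Scnn1a, the alpha subunit, was at 0.05, 0.15 and 0.22 (mean 0.14 ± 0.0825, 95% interval -0.03 to 0.31; adjusted p = 0.151). All 9 of these ratios were above 0, and the lowest mouse of Scnn1g, 0.48, was above the highest mouse of the other subunits, 0.28; the difference between subunits was not tested. Without mouse 1 Scnn1b also passed (0.27, adjusted p = 0.0169). A second row of Scnn1a, measured in mouse 1 only, stood at -1.27, and with exact 0 kept it took the gene to -0.13 (adjusted p = 0.798). Other genes of the collecting duct principal cell went both ways: Aqp2 was at 0.29 (adjusted p = 0.0205; 0.204 without mouse 3) and Gata3 at 0.49 (adjusted p = 0.00221), but Aqp3 at -0.70 (adjusted p = 0.0029) and Aqp4 at -1.38 (adjusted p = 5.9e-05). With array weights, which give the arrays unequal influence on the fit, Scnn1b and Scnn1a passed as well (0.24 and 0.19, adjusted p = 0.00388 and 0.0113). That fit passed 5194 of 8449 features, against 3638 in the main fit.

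**Figure D2:**
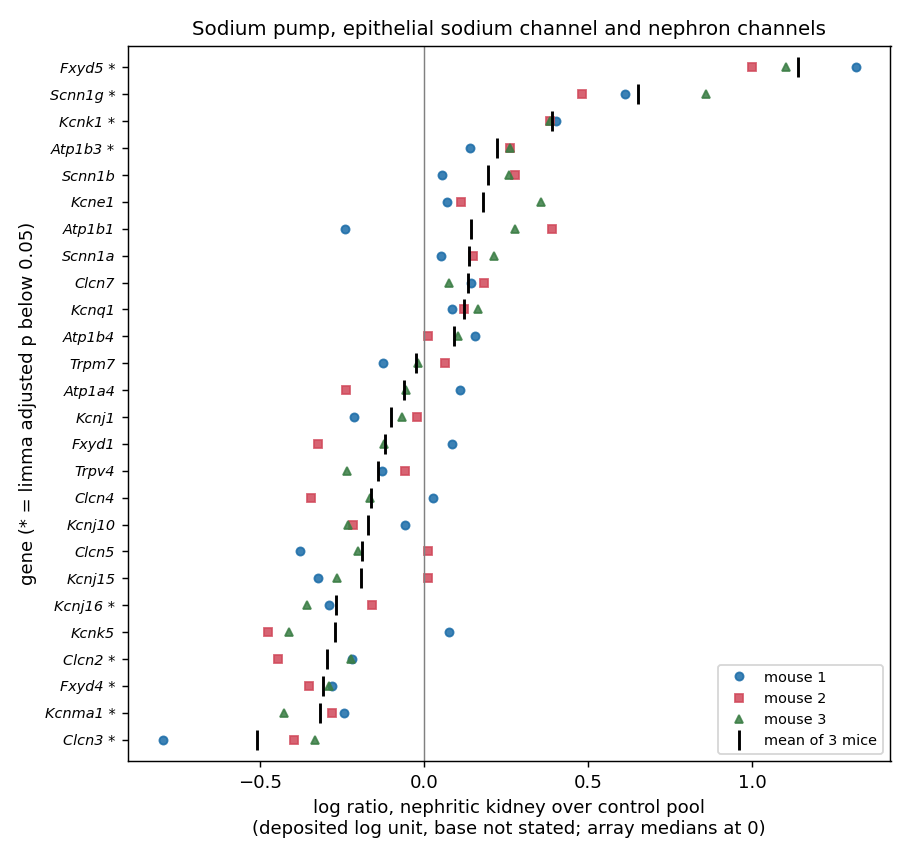
Log ratios (x axis, deposited log unit) of tested sodium pump, FXYD and epithelial sodium channel genes (y axis). Shown too are the tested channels of a list of genes with a known place in the nephron, which does not hold Trpv6. Symbols are the 3 mice, the black tick is their mean, and an asterisk marks a gene past the threshold. Fxyd5 and Scnn1g stand apart on the right, Clcn3 is the lowest at -0.51, and mouse 1 lies alone below 0 for Atp1b1.

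Genes on a list of channels with known sites in the kidney passed less often than the background of 43.1%, at 33.3%. That gap was not tested. Of 23 listed pump, sodium, potassium, chloride and TRP genes on the arrays, 21 were tested. Of these 2 were higher (Scnn1g and Kcnk1), 5 were lower and 14 did not pass, with a median of -0.14. Trpv6, a channel of calcium-absorbing epithelia that was higher (0.82, limma adjusted p = 0.000242), was not on the list and is not in these counts. Kcnk1, a two-pore potassium channel of proximal tubule and distal nephron, was at 0.40, 0.39 and 0.38 (mean 0.39 ± 0.0114, SD, n = 3; limma adjusted p = 0.00344), the smallest SD among tested members. Its rows gave 0.42 ± 0.0719 and 0.36 ± 0.0779, so both rows showed the rise. The 5 lower genes were Clcn3, Kcnma1, Fxyd4, Clcn2 and Kcnj16.

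The potassium channels of the distal nephron gave small values. Kcnj16, which pairs with Kcnj10 in the basolateral membrane of distal tubules, was at -0.29, -0.16 and -0.36 (mean -0.27 ± 0.1, SD, n = 3; limma adjusted p = 0.0231), with both rows below 0; it missed the threshold without mouse 3 (-0.22, adjusted p = 0.201) or with exact 0 kept (adjusted p = 0.121). Kcnj10 itself was at -0.06, -0.22 and -0.23 (mean -0.17 ± 0.0968; limma adjusted p = 0.0991). Kcnj1, the apical potassium secretion channel, was at -0.21, -0.02 and -0.07 (mean -0.10 ± 0.1, 95% interval -0.27 to 0.07; adjusted p = 0.303). The Kcnj1 values average a row at -0.46, -0.08 and 0.004 and a row at 0.03, 0.04 and -0.13, so neither row was below 0 in all mice. Of these genes only Kcnj16 passed, although the gene value of each was below 0 in all mice. With array weights Kcnj10 also passed (-0.21, adjusted p = 0.00647), in a fit that passed 5194 of 8449 features, against 3638 in the main fit.

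Kcnma1, the pore of the large-conductance calcium-activated channel that secretes potassium at high flow, was at -0.24, -0.28 and -0.43 in its row with all arrays (mean -0.32 ± 0.0969, SD, n = 3; limma adjusted p = 0.012). Its other rows, each measured in a pair of mice, were above 0, at 0.12 and 0.28 in mice 2 and 3 and at 0.14 and 0.12 in mice 1 and 3. The call was lost without mouse 1 or mouse 2, where 1 of those rows entered the mean (-0.08 and -0.10, adjusted p = 0.441 and 0.464), and without mouse 3, where neither did (-0.26, adjusted p = 0.132). Kcnj15, a partner subunit of renal inward rectifiers, was at -0.19 ± 0.18 (limma adjusted p = 0.115), and Kcnk5, an acid-sensitive channel of the proximal tubule, at 0.08, -0.48 and -0.41 (mean -0.27 ± 0.302; limma adjusted p = 0.0985). For Kcnk5 mouse 1 stood apart, and without it the gene was at -0.33 (adjusted p = 0.00652). A second row of Kcnk5, at -0.28 and -0.16 in mice 2 and 3, entered that mean.

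Kcnq1 and Kcne1, the pore and accessory subunit of a channel that repolarises the brush border membrane of the proximal tubule, were at 0.12 ± 0.04 (limma adjusted p = 0.175) and 0.18 ± 0.154 (limma adjusted p = 0.114). For Kcnq1 a further row, measured in mice 1 and 3, stood at -1.27 and -0.73, so the rows of the gene disagreed; with it, the gene came to -0.25 when 2 arrays sufficed, and to -0.44 without mouse 2 (adjusted p = 0.0156). No direction can be given for Kcnq1. In the same kidneys all 8 measured proximal tubule markers of a list of 20 were lower, with a median of -1.20; their part in the values of the channel genes was not tested.

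ClC proteins, which are chloride channels at the cell surface or chloride-proton exchangers in endosomes and lysosomes, were lower in 3 of 6 tested genes and higher in none (0). The share called lower was 50%, against 22.3% of all features, and rests on few genes. Clcn3, an endosomal exchanger, was at -0.80, -0.40 and -0.33 (mean -0.51 ± 0.251, SD, n = 3; limma adjusted p = 0.00738), and a second row, measured in mouse 2 only, was at -1.00. Clcn6, an exchanger of late endosomes, was at -0.42, -0.23 and -0.44 (mean -0.36 ± 0.115; limma adjusted p = 0.00788). Clcn2, a surface channel, was at -0.22, -0.44 and -0.22 (mean -0.29 ± 0.129; limma adjusted p = 0.0203), with rows at -0.24 and -0.35. All mice were below 0 for these 3 genes, and all 3 calls were lost with exact 0 kept (adjusted p = 0.228, 0.167 and 0.148).

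Clcn5, the proximal tubule exchanger mutated in Dent disease, was at -0.38, 0.01 and -0.20 (mean -0.19 ± 0.197, 95% interval -0.40 to 0.02; adjusted p = 0.133), and Clcn4 was at -0.16 ± 0.186 (limma adjusted p = 0.18). Clcn7, the lysosomal exchanger, was at 0.14, 0.18 and 0.08 (mean 0.13 ± 0.0535; limma adjusted p = 0.149) and was the ClC gene with a mean above 0. Clcn1, the muscle channel, was measured in mice 2 and 3, at 0.30 and -0.07. The calls for Clcn2 and Clcn6 were lost without mouse 3 (adjusted p = 0.0724 and 0.0731), and that for Clcn2 also without mouse 2 (adjusted p = 0.119).

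Genes with Kcn symbols, which are potassium channels, their accessory subunits and the antisense RNA Kcnmb4os1, made up 42 of the tested genes. Of these 3 were higher (7.1%, against 20.8% of all features), Kcnmb4os1 being 1 of them. Lower were 15 (35.7%, against 22.3%), and the median was -0.12. Of the lower ones, the A-type channels, which open briefly in nerve and heart, included Kcna4 at -0.53, -0.66 and -0.60 (mean -0.59 ± 0.0676, SD, n = 3; limma adjusted p = 0.000722). Kcnd2 was at -0.43, -0.88 and -0.39 (mean -0.57 ± 0.269; limma adjusted p = 0.00561), and Kcnd3 at -0.42, -0.56 and -0.53 (mean -0.50 ± 0.072; limma adjusted p = 0.00149). Their relative Kcnd1 was at -0.23 ± 0.168 and missed the threshold (limma adjusted p = 0.062; 0.0127 without mouse 1), and Kcnip1, an accessory subunit of these channels, was at -0.23 ± 0.121 (limma adjusted p = 0.045). A second row of Kcna4, measured in mice 2 and 3, gave 0.07 and -0.15, well short of the first row. Kcna4 and Kcnd2 lost their calls with exact 0 kept (adjusted p = 0.0516 and 0.158), where Kcnd3 moved to -0.24 (adjusted p = 0.0446).

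Small-conductance calcium-activated channels, which are opened by calmodulin, were lower too. Kcnn1 was at -0.56, -1.00 and -0.72 (mean -0.76 ± 0.226, SD, n = 3; limma adjusted p = 0.00106) and had the lowest mean of the potassium channel genes over rows with all arrays. Where 2 arrays sufficed, Kcnj12 (-1.11) and Kcne1l (-1.41 and -1.02 in mice 2 and 3) were lower. Kcnn1 missed the threshold with exact 0 kept (-0.74, adjusted p = 0.0876). Kcnn2 was at -0.46, -0.23 and -0.31 (mean -0.33 ± 0.118; limma adjusted p = 0.0119). Kcnn4, the intermediate-conductance channel of T cells, macrophages and red cells, was at 0.19, 0.03 and 0.20 (mean 0.14 ± 0.0967, 95% interval -0.03 to 0.31; adjusted p = 0.159). Every Kcnn4 ratio was above 0 and every Kcnn1 and Kcnn2 ratio below it. Kcnn2 missed the threshold without mouse 3 (adjusted p = 0.0653) and with exact 0 kept (adjusted p = 0.113).

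Inward rectifiers were lower in 3 of 9 tested genes (33.3%, against 22.3% of all features) and higher in none (0). The lower ones were Kcnj12, Kcnj9 and Kcnj16. Kcnj12, a strong rectifier of heart and muscle, was at -0.31, -0.47 and -0.58 (mean -0.46 ± 0.135, SD, n = 3; limma adjusted p = 0.00369). Its second row stood at -2.55 and -2.25 in mice 1 and 3, far from the first; it belongs to a stretch of 16 neighbouring row IDs that an alternative leaves out, and with no ratio in mouse 2 it did not enter the test. Kcnj9, a G protein-gated rectifier of nerve cells, was at -0.59, -0.24 and -0.49 (mean -0.44 ± 0.179; limma adjusted p = 0.00675). A second row of Kcnj9 gave -0.10 and 0.13 in mice 2 and 3, short of the first row. Without mouse 1 that row entered the mean, and the gene missed the threshold (-0.17, adjusted p = 0.088). Kcnj8, a subunit of the ATP-sensitive channel of vessels, was at 0.25, -0.19 and -0.11 (mean -0.02 ± 0.234; limma adjusted p = 0.909), with mice on both sides of 0. With exact 0 kept, Kcnj12 stood at -1.02 and Kcnj9 at -0.20, and neither passed (adjusted p = 0.241 and 0.113).

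The other lower potassium channel genes lay between -0.25 and -0.50. Kcna7, a channel of heart and muscle, was at -0.24, -0.87 and -0.39 (mean -0.50 ± 0.328, SD, n = 3; limma adjusted p = 0.0157), and Kcnu1, the channel of sperm, at -0.34 ± 0.141. The accessory subunits Kcne4 and Kcnab2 were at -0.34 ± 0.156 and -0.25 ± 0.0428, and Kcnh2, the pore of the rapid delayed rectifier of heart, at -0.25 ± 0.152 (limma adjusted p between 0.0132 and 0.0415 for these genes). Kcnh2 had 2 further rows with values above 0, at 0.20 and 0.42 in mice 1 and 3 and at 0.19 in mouse 3, and its mean came to 0.02 with exact 0 kept; it also missed the threshold without any one of the mice (adjusted p from 0.067 to 0.926). Without mouse 2, the row with ratios in mice 1 and 3 entered the mean of Kcnh2. Kcnab2 was also at 0.34 and -0.06 in mice 1 and 3 in a second row, which entered its mean without mouse 2. Without mouse 2, Kcne4, Kcnu1, Kcnab2 and Kcnip1 missed the threshold (adjusted p = 0.076, 0.0741, 0.745 and 0.243), as did Kcne4, Kcnab2 and Kcnip1 without mouse 3 (0.0883, 0.189 and 0.13). With exact 0 kept Kcna7, Kcne4, Kcnu1, Kcnab2 and Kcnip1 all missed it (-0.27, -0.16, -0.32, -0.06 and -0.11; adjusted p = 0.204, 0.155, 0.137, 0.627 and 0.193), and Kcnab2 did so where 2 arrays sufficed (-0.12, adjusted p = 0.307). Kcne1l, an accessory subunit measured in mice 2 and 3, was far lower there, at -1.41 and -1.02, with no ratio in mouse 1.

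Of the higher genes with Kcn symbols besides Kcnk1, neither is a clear case of a channel gene. Kcna6, a channel of nerve cells, was at 0.18, 0.21 and 0.33 (mean 0.24 ± 0.0808, SD, n = 3; limma adjusted p = 0.0292), but this is the average of a row at 0.69 ± 0.0773 and a row at -0.21 ± 0.141, which lay on opposite sides of 0 in all mice. The average also missed the threshold without mouse 2 or mouse 3 (adjusted p = 0.0829 and 0.254). Kcnmb4os1, an antisense RNA of the gene of an accessory subunit, was at 0.64, 0.53 and 0.21 (mean 0.46 ± 0.223; limma adjusted p = 0.00867), and the sense gene Kcnmb4 was listed at exact 0 in both rows. Its call was lost with exact 0 kept (adjusted p = 0.15). Whether the array features are specific to 1 strand is not given in the sources used here.

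**Figure D3:**
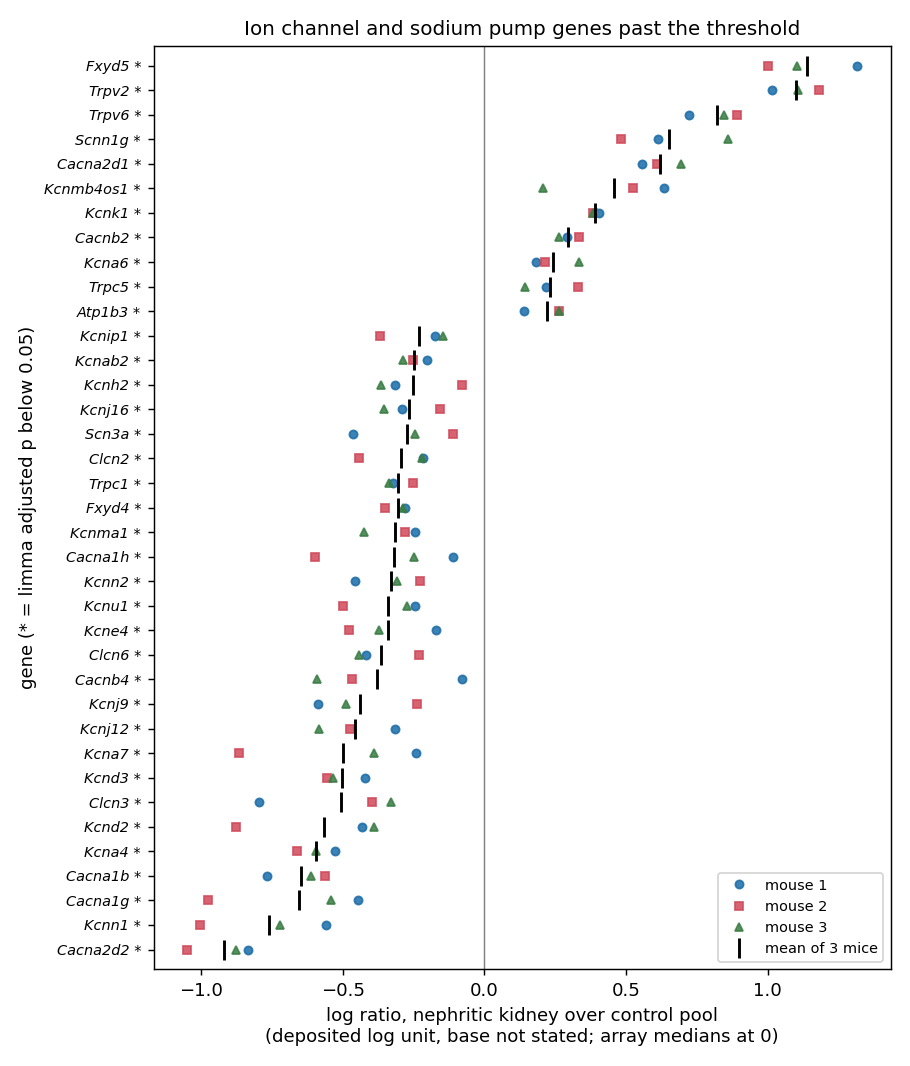
Log ratios (x axis, deposited log unit) of the 37 genes past the threshold (y axis), with 1 symbol for each of 3 mice and a black tick for the mean. The 11 higher genes run from Fxyd5 at 1.14 down to Atp1b3 at 0.22, and the 26 lower genes from Kcnip1 at -0.23 to Cacna2d2 at -0.92.

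Voltage-gated calcium channels had the largest share of calls of these families, 77.8% against 43.1% of all features, over only 9 tested genes. Of these genes 2 were higher (22.2%, against 20.8%), 5 were lower (55.6%, against 22.3%) and 2 did not pass. Among the pores, Cacna1b, the N-type channel of nerve endings, was at -0.77, -0.56 and -0.61 (mean -0.65 ± 0.107, SD, n = 3; limma adjusted p = 0.000676). Cacna1g, a low-voltage T-type channel, was at -0.45, -0.97 and -0.54 (mean -0.65 ± 0.282; limma adjusted p = 0.00347), and a second row was at -0.68 and -0.39 in mice 1 and 3. Cacna1h, another T-type pore, was at -0.11, -0.60 and -0.25 (mean -0.32 ± 0.25; limma adjusted p = 0.0418). A second row of Cacna1h was at 0.21 and -0.05 in mice 1 and 3. The gene missed the threshold without mouse 2, where that row entered the mean (-0.05, adjusted p = 0.748). Without mouse 3 that row did not enter, and the threshold was missed too (-0.35, adjusted p = 0.0902). Cacna1d, an L-type pore, was at -0.04 ± 0.0953 (limma adjusted p = 0.702) and Cacna1s, the L-type pore of skeletal muscle, at 0.14 ± 0.189 (limma adjusted p = 0.243).

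The accessory subunits of calcium channels, which carry the pores to the membrane, were called in both directions. The alpha2delta subunits were opposite: Cacna2d1 was at 0.56, 0.61 and 0.70 (mean 0.62 ± 0.0698, SD, n = 3; limma adjusted p = 0.000615), and Cacna2d2 at -0.83, -1.05 and -0.88 (mean -0.92 ± 0.113; limma adjusted p = 0.000188). Cacna2d2 was the lowest tested member, and 1.9% of all features had a mean at or below it. With exact 0 kept, where rows at 0 on all arrays entered, Cacna2d1 moved to 0.21 (adjusted p = 0.0369) and Cacna2d2 to -0.45 (adjusted p = 0.0394), and both kept their calls. The beta subunits were opposite as well: Cacnb2 was at 0.29, 0.33 and 0.26 (mean 0.30 ± 0.036; limma adjusted p = 0.0113) and Cacnb4 at -0.08, -0.47 and -0.59 (mean -0.38 ± 0.266; limma adjusted p = 0.0261). Both beta subunits lost their calls without mouse 2 (adjusted p = 0.0586 and 0.0822) and without mouse 3 (adjusted p = 0.0765 and 0.16). With exact 0 kept Cacnb2 moved to 0.16 and kept its call (limma adjusted p = 0.0382), while Cacnb4 lost it (-0.36, limma adjusted p = 0.269). The Cacnb4 values average a row at -0.52 ± 0.244 and a row at -0.24 ± 0.309, and the latter was above 0 in mouse 1 (0.08).

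Voltage-gated sodium channels were sparsely measured, with 4 of 8 genes tested. Scn3a was at -0.46, -0.11 and -0.24 (mean -0.27 ± 0.177, SD, n = 3; limma adjusted p = 0.0391), a call that fell away without mouse 1 or mouse 3 (adjusted p = 0.0917 and 0.135) or with exact 0 kept (0.251 as adjusted p). Scn1a, Scn7a and Scn10a lay at 0.14 ± 0.24, -0.15 ± 0.155 and 0.07 ± 0.166 and did not pass (limma adjusted p = 0.298, 0.17 and 0.513); without mouse 1 Scn1a was at 0.27 and passed (adjusted p = 0.0182). Scn9a, a channel of pain fibres, was at -0.04 and 0.01 in mice 2 and 3, and Scn8a and Scn11a were listed at exact 0.

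Of the 7 tested genes with TRP symbols, Trpc4ap among them at 0.11 ± 0.124 (limma adjusted p = 0.261), 3 were higher and 1 was lower. These shares were 42.9% and 14.3%, against 20.8% and 22.3% of all features. After Trpv2 and Trpv6, Trpc5 was higher at 0.22, 0.33 and 0.14 (mean 0.23 ± 0.0935, SD, n = 3; limma adjusted p = 0.0372), a call that fell away without mouse 2 or mouse 3 (adjusted p = 0.193 and 0.119) or with exact 0 kept (0.113 as adjusted p). Trpc1, a subunit of receptor-operated cation channels, was lower at -0.32, -0.25 and -0.34 (mean -0.30 ± 0.0448; limma adjusted p = 0.0104), with rows at -0.14 and -0.46, and missed the threshold without mouse 3 (adjusted p = 0.101). Trpv4, an osmosensitive channel of the distal nephron, was at -0.13, -0.06 and -0.23 (mean -0.14 ± 0.0889, 95% interval -0.31 to 0.03; adjusted p = 0.153), and Trpm7, a magnesium-permeable channel kinase, at -0.02 ± 0.0943 (limma adjusted p = 0.798). Trpc6, the podocyte channel mutated in familial glomerulosclerosis, had ratios in mice 2 and 3 only, at -0.19 and 0.08. Trpm1 was at 0.42 and 0.81 in mice 1 and 3 without a ratio in mouse 2.

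Channel and pump genes known from leukocytes formed a further list, drawn up with earlier results of these data known. Of its genes on the table, 4 of 6 were tested. Fxyd5 and Trpv2 were higher (50%, against 20.8% of all features), Kcnab2 was lower and Kcnn4 did not pass, and the median was 0.62. Since Fxyd5 and Trpv2 are also the highest tested members, this median depends on how the list was chosen. Kcna3, the potassium channel of T cells, was listed at exact 0 in both rows, and Kcnj2 was at -0.11 and -0.29 in mice 2 and 3. On the same arrays 11 of 12 measured macrophage markers of a list of 13 were higher, with medians of 1.10, 1.07 and 1.12 in mice 1, 2 and 3, as were 4 of 6 measured T cell markers of 10, with a median of 0.26. The macrophage means ran from -0.04 for Cx3cr1, the marker that did not pass, to 2.00 for Clec7a; the T cell marker Cd8a was at 0.99. The part of infiltrating cells in the values of Fxyd5 and Trpv2 was not tested.

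The remaining genes, on neither the nephron nor the leukocyte list, held 53 of the tested members. They are mostly known from nerve, heart, muscle and testis, but Trpv6, of calcium-absorbing epithelia, was among them. Of these 53 genes 7 were higher (13.2%) and 20 lower (37.7%), with a median of -0.08. Over all features 20.8% were higher and 22.3% lower. Markers of other tissues gave few measured genes. Of 14 skeletal and cardiac muscle markers 9 were measured, 4 lower and 1 higher (Ryr1, the calcium release channel, at 0.72), with a median of -0.22. Among 11 neuronal markers on the arrays, 1 was measured, Tubb3 at 0.29 (adjusted p = 0.0341; 0.188 without mouse 2 and 0.0808 without mouse 3), and 10 had no row with all arrays. Smooth muscle markers were higher in 2 of 7, endothelial ones in 1 of 9 and podocyte ones in 1 of 5, where 1 was lower. B cell markers were higher in 1 of 3, neutrophil ones higher in 2 and lower in 3 of 8, and erythroid ones higher in 1 and lower in 2 of 3. Their part in the values of the channel genes was not tested.

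Genes that regulate or accompany these channels were taken from a list of kinases, ubiquitin ligases, hormone receptors, anchors and cotransporters. Among 32 genes on the arrays, 25 were tested. Of these 5 were higher (20%, against 20.8% of all features), 10 were lower (40%, against 22.3%) and 10 did not pass, with a median of -0.06. Around the epithelial sodium channel, the ubiquitin ligase Nedd4l, which removes it from the membrane, was at 0.20, 0.34 and 0.23 (mean 0.26; limma adjusted p = 0.0234). Sgk1, the aldosterone-induced kinase that blocks Nedd4l, was at -0.30, -0.28 and -0.60 (mean -0.39; limma adjusted p = 0.0103), Tsc22d3, another steroid-induced gene, at -0.75 (adjusted p = 0.000601), and Prss8, a protease that activates the channel, at -0.27 (adjusted p = 0.0256). The glucocorticoid receptor Nr3c1 was at -0.26 and Hsd11b2, which protects the mineralocorticoid receptor from cortisol-like steroids, at 0.26; neither passed (adjusted p = 0.0726 and 0.0678). With 1 mouse left out, Nedd4l missed the threshold without mouse 2 or 3 (adjusted p = 0.129 and 0.132), Sgk1 without mouse 3 (0.0979) and Prss8 without mouse 1 or 3 (0.0531 and 0.109), while Hsd11b2 passed without mouse 1 or 2 (0.0443 and 0.0425) and Nr3c1 without mouse 3 (0.0374).

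The cotransporters that feed on the sodium gradient differed. Slc12a1, the sodium-potassium-chloride cotransporter of the thick ascending limb, was at -1.15, -0.74 and -0.72 (mean -0.87; limma adjusted p = 0.000708), while its basolateral relative Slc12a2 was at 0.39, 0.63 and 0.69 (mean 0.57; limma adjusted p = 0.00187). Slc12a3, the cotransporter of the distal convoluted tubule, was at -0.43, 0.24 and 0.17 (mean -0.01; limma adjusted p = 0.967), a split of mouse 1 from the others like that of Atp1b1. Stk39, a kinase that activates these cotransporters, was at -0.56 (adjusted p = 0.00187) as the average of rows at 0.22 and -1.33, so its rows differed in sign, and the anchor protein Ank3 at -0.51 (adjusted p = 0.00154). With exact 0 kept, Ank3 alone of the regulators named here as passing kept its call. Markers of thick limb and distal tubule were lower in 4 of 7 measured genes, with a median of -0.34, and collecting duct markers higher in 5 and lower in 4 of 14, with a median of 0.08. Among the latter Aqp4 stood at -1.38 and Krt19 at 1.26.

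Where a gene had 2 rows measured on all arrays, the rows often differed. This held for 19 channel and pump genes: in 13 (68.4%) the rows had the same sign, close to 68.7% of the 1139 such genes on the whole table, and the median distance between rows was 0.187 against 0.177. The farthest apart were Kcna6 (0.901), Fxyd1 (0.524), Kcnh1 (0.523), a voltage-gated channel of brain, and Kcnab1 (0.449), an accessory subunit. For Kcnh1 the rows were at 0.19 ± 0.556 and -0.33 ± 0.131 (SD, n = 3), and for Kcnab1 at 0.03 ± 0.241 and -0.42 ± 0.191, so that the gene means, -0.07 and -0.19, describe neither row. The closest were Kcnj16 (0.0265) and Kcna5 (0.0291).

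**Figure D4:**
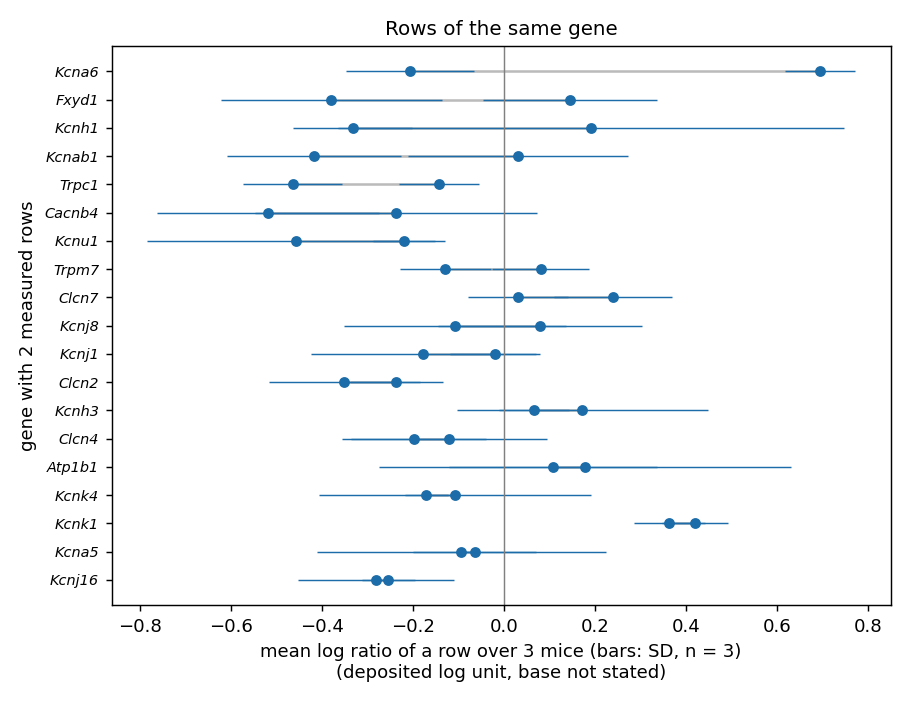
Mean log ratio over 3 mice (x axis, deposited log unit; bars are SD, n = 3) of each row of the 19 genes with 2 rows measured on all arrays (y axis), ordered by the distance between the rows. Kcna6 has the widest gap, 0.901, with a row on each side of 0, while the rows of Kcnk1 lie together above 0 and those of Kcnj16 together below it.

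Many channel genes gave no usable ratio. Of the 215 rows 45.1% had a ratio on all arrays, against 59.5% of all 16281 rows, and 30.2% were at exact 0 on every array, against 19.5%. At the level of genes, 17 had a row with ratios on 2 arrays at best, 5 on 1 array and 23 were at exact 0 throughout. The last group held among others Cacna1c, the L-type pore of heart and vessels, Cacna1e, Kcnc1, Kcnc2, Kcnip3, Kcnj5, Kcns1 and Trpc7. Exact 0 was treated as a missing ratio, so nothing was measured for these genes.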

How the data were processed

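Total RNA of whole kidney from 3 nephritic mice was measured on 2-colour arrays against a pool of 5 normal mice. The values were the log ratios deposited by the authors; their scanner, normalization, log base and direction: not given in the sources used here. Exact 0 (31.0, 32.4 and 26.7% of cells in mice 1, 2 and 3) was treated as missing. Of 16281 rows, 13738 had 1 gene symbol in the platform annotation (13694 matched by gene ID to RefSeq GRCm38.p6), 52 had several and 2491 none. Arrays were centred on their medians (0.0151, 0.0160 and 0.0171 in mice 1, 2 and 3), rows with ratios on all 3 arrays were averaged by gene, and 8449 features were tested with limma 3.58.1 under R 4.3.3 (intercept-only lmFit, then eBayes, whose prior had an SD of 0.134 and 4.85 degrees of freedom against 2 residual ones; two-sided p-values, Benjamini-Hochberg, 0.05). Intervals of 95% are from the same fit. The number of arrays limits the precision. Scripts were tested on simulated data. The genes and lists were chosen with earlier results of these data known. Named were all tested pump, FXYD and epithelial sodium channel genes and nephron and leukocyte channels, the up to 12 highest and 12 lowest genes past the threshold, and up to 4 regulators or markers of a list; other named genes were picked with values in view. The alternatives covered other centring, scaling, priors, weights, filters and row rules, and leaving out each mouse. Protein sequences were not used here.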

Additional observations from a re-analysis of the deposited data

How the results depend on the processing

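No paired analysis was possible because the arrays form 1 group against a shared pool. Over 12 alternatives that give 1 value a gene, 8 of the 37 called channel and pump genes kept their call in all but the unmoderated test: Fxyd5, Trpv2, Trpv6 and Cacna2d1 above 0, and Cacna2d2, Cacna1b, Cacna1g and Kcnd3 below it. The unmoderated one-sample test passed 0 features, 0 higher and 0 lower genes of the set (3060 features, 12 and 15 genes at an unadjusted p under 0.05, against 4361, 12 and 28 with limma). With exact 0 kept as a ratio 986 features passed, and 6 genes were higher and 7 lower, with 25 of the 37 calls lost; rows at 0 on all arrays then entered the prior and the adjustment. Array weights gave 20 higher and 36 lower genes and 5194 features, and a filter that dropped the 20% of features lowest in SD gave 6, 23 and 2836; Kcnk1 was among those dropped. Leaving out mice 1, 2 and 3 in turn gave 2223 to 4292 features, 7 to 16 higher and 12 to 28 lower genes, the fewest without mouse 3 (7 higher, 12 lower, 2223 features), and lost 4, 14 and 18 of the 37 calls. Rows with a ratio in both remaining mice then entered the gene means, so a lost call can also come from such a row. Without centring 11 were higher and 23 lower. The sign turned in 1 row tested singly for Kcna6 (-0.21), Trpm7 (0.0801), Fxyd1 (0.144), Kcnh1 (0.19), Kcnab1 (0.0306), Kcnj8 (0.078) and Stk39 (0.218); with 2 arrays sufficing for Kcnq1 (-0.25) and Scn10a (-0.0582); without centring for Kcnj8 (0.000588) and Slc12a3 (0.00864); and with array weights for Slc12a3 (0.129) and Cx3cr1 (0.0952). With exact 0 kept it turned for Scnn1a (-0.13), Kcnq1 (-0.26), Kcnh2 (0.0163), Kcnj8 (0.000588), Scn10a (-0.0200) and Slc12a3 (0.00864). With each mouse left out in turn, values ran across 0 for Trpm7 (-0.0698 to 0.0243), Kcnh1 (-0.198 to 0.0356), Cacna1d (-0.0887 to 0.00518), Scn10a (-0.0299 to 0.0441), Slc12a3 (-0.129 to 0.203) and Cx3cr1 (-0.151 to 0.0323), all turned without mouse 1; for Kcnq1 (-0.44 to 0.143) and Atp1a4 (-0.145 to 0.029), turned without mouse 2; and for Kcnj8 (-0.148 to 0.0716), turned without mouse 2 or 3. Signal over background was not analysed here.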
